A study of Mus musculus with 17 samples.

Results

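The 10 genes described here are markers that mouse astrocytes raise when they become reactive. Gfap, Vim and Nes encode intermediate filament proteins, Lcn2 and Serpina3n encode secreted proteins, Cd44, S1pr3 and Steap4 encode membrane proteins, and Hspb1 and Aspg encode a small heat shock protein and an asparaginase. They were taken by gene symbol alone, as every probe set that the array's annotation assigns to one of these genes and to no other gene. This gave 23 of the 34958 single-gene probe sets and 10 of the 18194 genes. A probe set is a group of short probes on the array that together report the transcripts of a gene. Cd44 had 4 probe sets, Gfap, Vim, S1pr3 and Nes had 3 each, Steap4 and Hspb1 had 2 each, and Lcn2, Serpina3n and Aspg had 1 each. Where 1 value stands for a gene, it is that of its brightest probe set, meaning the largest average signal across the 17 arrays.

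RNA was measured in thoracic spinal cord with 1 array per mouse in 6 anti-RGMa mice, 5 isotype control mice and 6 naïve mice, all female C57BL/6 mice labelled as 8 weeks old. The anti-RGMa and isotype control mice, 11 in all, had targeted experimental autoimmune encephalomyelitis (EAE). They were immunized with the myelin peptide MOG35-55 in complete Freund's adjuvant, given pertussis toxin, and injected with TNF-α and IFN-γ into the cord through a dorsal laminectomy at Th8, so that the inflamed lesion formed at a known site. Counting days from the cytokine injection (DPI), which came weeks after the immunization, they received 10 mg/kg intravenously from 9 DPI of either a humanized antibody against repulsive guidance molecule A (RGMa), a ligand that restrains axon growth, or the isotype control palivizumab. A stretch of 4.5 mm of cord around the injection site was taken at 14 DPI, and naïve mice had none of these procedures. Setting anti-RGMa against isotype control mice therefore asks what the antibody did to the members in the lesion. Each comparison of EAE with naïve mice covers the immunization, toxin, surgery, cytokines and antibody at once, whose parts cannot be told apart.

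Every array had the same trimmed mean signal, and the median signal was 136 to 157 in anti-RGMa, 137 to 165 in isotype control and 132 to 145 in naïve mice. In 0 pairs of arrays were the values identical. Isotype control replicates 3, 4 and 5 carried skeletal muscle transcripts, with a mean log2 signal over 8 muscle markers of 9.21, 13.27 and 9.52, against 4.03 to 8.28 on the other arrays. Some results changed without them by the limits used here (a call, a direction or over 1.5 times). For the members, such adjusted calls, counts at the study threshold and such log2 fold changes are given both ways. For the gene lists, such counts of called genes and such medians are. This setting was chosen after the data had been seen. The limma p-values set a difference between group means against the spread between mice, and the number of arrays limits the precision.

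Astrocytes are the glial cells that take up glutamate and potassium around synapses, contact blood vessels and, after injury or inflammation, enlarge and switch on a shared set of genes. In mice, cytokines of the interleukin-6 family act through the receptor subunit gp130 and the transcription factor STAT3 to drive this state, and interleukin-1, tumor necrosis factor and complement C1q from microglia act partly through NF-kB. Many of these genes are not particular to astrocytes. Vimentin and CD44 are also made by fibroblasts, vessel cells and leukocytes, nestin by progenitors and by cells of growing vessels, and lipocalin 2 by neutrophils. In whole tissue, a change in the number of cells of a type and a change in RNA per cell cannot be told apart.

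All 10 genes were higher in EAE than in naïve cord. At an adjusted p under 0.05 (limma, Benjamini-Hochberg over 34958 probe sets), 21 of the 23 member probe sets rose in anti-RGMa against naïve mice, where 17.0% of all probe sets rose, and 22 of 23 rose in isotype control against naïve mice, where 21.4% rose. Of the 23, 0 fell in either comparison, whereas 20.9% of all probe sets fell in anti-RGMa and 26.3% in isotype control mice against naïve mice. In 21 of the 23, every EAE array lay above every naïve array, which held for 10.1% of all probe sets. The 2 exceptions were Cd44 1443265_at and Nes 1453997_a_at, both dim. The median log2 fold change of the 10 genes was 2.45 in anti-RGMa against naïve mice and 2.86 in isotype control against naïve mice, against -0.06 over all probe sets in each. The split over all probe sets depended on how arrays were aligned. After centring each array on its median, 4646 probe sets rose and 9236 fell in anti-RGMa against naïve mice (5942 and 7311 with the deposited scaling), and 5862 rose and 11254 fell in isotype control against naïve mice (7476 and 9194 with the deposited scaling). Centring moved the median of all probe sets to -0.16 and -0.20 in these comparisons and quantile normalization to -0.12 and -0.14, while the members that rose stayed at 21 and 22 under both.

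The upstream sequences of the members are shown for 3 genes, because Lcn2 and Steap4 had the largest fold changes between EAE and naïve cord and Steap4 and Vim were the only members whose windows held a searched motif. Promoter windows of all 10 genes were found in RefSeq (build GRCm38.p6), and bases 250 to 1 before the annotated start were searched on both strands for the STAT motif TTCNNNGAA, the AP-1 motif TGANTCA, the heat shock element and the NF-kB consensus. For Serpina3n 188 and for Cd44 246 of these bases were used, those also before the gene's earliest annotated start. The shares over all promoters used 250 bases each. A STAT match of Gfap at -2 to 7 crossed the start and was not counted. Capitals mark matches, and the sequences run 5′ to 3′ on the strand of the gene.
Lcn2 promoter (chr2:32387740-32387989, minus strand): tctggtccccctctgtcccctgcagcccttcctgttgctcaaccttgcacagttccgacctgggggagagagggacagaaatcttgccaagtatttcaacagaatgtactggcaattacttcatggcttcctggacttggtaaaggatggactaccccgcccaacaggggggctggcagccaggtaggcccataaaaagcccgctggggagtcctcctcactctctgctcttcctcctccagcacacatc
Steap4 promoter (chr5:7960222-7960471, plus strand): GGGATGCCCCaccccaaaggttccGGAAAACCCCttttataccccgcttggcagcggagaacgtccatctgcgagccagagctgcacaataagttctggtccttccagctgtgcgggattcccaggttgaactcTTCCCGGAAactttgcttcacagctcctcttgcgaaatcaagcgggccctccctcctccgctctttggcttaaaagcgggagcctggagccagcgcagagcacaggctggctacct
Vim promoter (chr2:13574061-13574310, plus strand): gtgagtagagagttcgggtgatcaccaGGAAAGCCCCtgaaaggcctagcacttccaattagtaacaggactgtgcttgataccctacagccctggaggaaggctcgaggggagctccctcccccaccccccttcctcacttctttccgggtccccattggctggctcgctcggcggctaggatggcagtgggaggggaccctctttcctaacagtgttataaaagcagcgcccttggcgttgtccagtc
The Steap4 window held 2 matches to the NF-kB consensus, at positions -250 to -241 and -226 to -217 counted from the start, and a STAT match at -116 to -108. The Vim window held 1 match to the NF-kB consensus at -223 to -214. The Lcn2 window held none of the 4 motifs. Over 32851 promoters, 7.02% held the STAT motif, 6.75% the AP-1 motif, 0.466% the heat shock element and 3.9% the NF-kB consensus, against 1, 0, 0 and 2 of the 10 members. No motif overlapped another in these windows, and a match describes letters only.

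Among the filament genes, Gfap encodes the filament protein most used to mark astrocytes. By brightest probe set, Gfap, Hspb1 and Nes had the 3 smallest rises of the 10 genes in both EAE groups. The log2 signal of Gfap 1440142_s_at was 13.82 at lowest, 14.14 at the median and 14.22 at highest in the 6 anti-RGMa mice, 14.02, 14.17, 13.71, 13.58 and 14.17 in isotype control replicates 1 to 5, and 12.63, 12.87 and 12.95 at lowest, median and highest in the 6 naïve mice. Every EAE array lay above every naïve array, and the EAE groups overlapped. The log2 fold change was 1.27 ± 0.11 in anti-RGMa against naïve mice (SE, 2.41-fold, limma adjusted p = 4.75e-07) and 1.11 ± 0.12 in isotype control against naïve mice (2.16-fold, adjusted p = 2.39e-06). The other probe sets gave 0.91 (1426508_at) and 1.28 (1426509_s_at) in anti-RGMa and 0.66 and 1.23 in isotype control mice against naïve mice. The Gfap differences between the antibody groups were 0.16 for 1440142_s_at (95% interval -0.09 to 0.41, adjusted p = 0.551), 0.25 for 1426508_at (0.01 to 0.49, adjusted p = 0.363) and 0.05 for 1426509_s_at (-0.23 to 0.33, adjusted p = 0.892). None passed the test. Signals of 1426508_at lay above the isotype control mean in 6 of 6 anti-RGMa mice. The 2 probe sets ending in _s_at can bind transcripts of more than 1 gene. Without isotype control replicates 3, 4 and 5, which carried skeletal muscle transcripts, the differences between the antibody groups were -0.0037 for Gfap 1440142_s_at and -0.096 for 1426509_s_at.

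Vim encodes vimentin, which co-assembles with the Gfap product in reactive astrocytes and is the main filament of mesenchymal cells. Vim 1450641_at had log2 signals of 13.67, 13.83 and 14.19 at lowest, median and highest in anti-RGMa mice, 14.32, 13.98, 14.03, 14.19 and 14.14 in isotype control replicates 1 to 5, and 11.30, 11.70 and 11.97 in naïve mice. Both EAE groups lay wholly above the naïve mice, and within EAE 4 of 6 anti-RGMa arrays lay below all isotype control arrays. The rise was 2.22 ± 0.12 in anti-RGMa (SE, 4.65-fold, limma adjusted p = 3.18e-09) and 2.47 ± 0.13 in isotype control mice (5.52-fold, adjusted p = 1.57e-09) against naïve mice, and the other 2 probe sets rose by 2.24 (1438118_x_at) and 2.47 (1456292_a_at) in anti-RGMa and by 2.64 and 2.96 in isotype control mice. The 3 differences of anti-RGMa from isotype control mice lay below 0 and none passed the test, with -0.25 for 1450641_at (95% interval -0.52 to 0.03, adjusted p = 0.413), -0.40 for 1438118_x_at (-0.68 to -0.12, adjusted p = 0.28) and -0.49 for 1456292_a_at (-0.80 to -0.18, adjusted p = 0.267). For 1456292_a_at, whose anti-RGMa signals were 12.91 at lowest, 13.24 at the median and 13.94 at highest against isotype control signals of 13.94, 13.75, 13.70, 13.83 and 13.82, anti-RGMa replicate 6 alone reached the isotype control range. The suffix _x_at marks probes that can bind other transcripts.

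Nes encodes nestin, a filament protein of neural progenitors that astrocytes re-express near lesions, and with Cd44 it had the lowest difference of anti-RGMa from isotype control among the 10 brightest probe sets. Nes 1418289_at had log2 signals of 7.94, 8.30 and 8.38 at lowest, median and highest in anti-RGMa mice, 8.71, 8.65, 8.37, 9.05 and 9.02 in isotype control replicates 1 to 5, and 6.94, 7.54 and 7.93 in naïve mice. The EAE groups met only at isotype control replicate 3, and the lowest anti-RGMa mouse was barely above the highest naïve mouse. Nes rose by 0.75 ± 0.17 in anti-RGMa (SE, 1.69-fold, limma adjusted p = 0.00293) and by 1.31 ± 0.18 in isotype control mice (2.48-fold, adjusted p = 3.12e-05) against naïve mice. Between the antibody groups the difference was -0.55 (95% interval -0.94 to -0.17, unadjusted p = 0.00775, adjusted p = 0.28), with 6 of 6 anti-RGMa mice below the isotype control mean.

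Another Nes probe set, 1449022_at, showed a wider contrast. Its log2 signals were 7.61, 8.45 and 9.09 at lowest, median and highest in anti-RGMa mice, 9.64, 9.57, 8.83, 9.84 and 9.14 in isotype control mice, and 5.00, 5.73 and 7.32 in naïve mice. It rose by 2.54 in anti-RGMa and by 3.48 in isotype control mice against naïve mice, and differed by -0.95 ± 0.37 between the antibody groups (SE, 95% interval -1.73 to -0.16, limma unadjusted p = 0.0217, adjusted p = 0.316). With 32 added to every signal, the rises of Nes 1449022_at were 2.01 in anti-RGMa and 2.89 in isotype control mice. The third, 1453997_a_at, had 0.55 in anti-RGMa mice, which did not pass (adjusted p = 0.346), and rose by 1.39 in isotype control mice (adjusted p = 0.0172). Without anti-RGMa replicate 6, Nes 1453997_a_at rose by 0.93 in anti-RGMa against naïve mice (adjusted p = 0.0381, range over alternatives 0.0381 to 0.575), and without isotype control replicates 3, 4 and 5 its 1.37 in isotype control mice did not pass. With 32 added, its value in isotype control mice was 0.75. With the mean of its 3 probe sets, Nes rose by 1.28 in anti-RGMa and 2.06 in isotype control mice.

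The secreted members had some of the largest differences from naïve cord, and the antibody groups had near-equal means over all arrays. Lcn2 encodes lipocalin 2, an iron-siderophore carrier that reactive astrocytes and neutrophils release, and its promoter window is the one above with no match. Its log2 signal, from 1427747_a_at, was 13.75, 14.14 and 14.62 at lowest, median and highest in anti-RGMa mice, 14.53, 14.27, 13.73, 13.78 and 14.47 in isotype control replicates 1 to 5, and 4.95, 6.52 and 6.89 in naïve mice. The EAE ranges nearly coincided and no EAE value came near a naïve one. The fold change was 240-fold in anti-RGMa (95% interval 156 to 369, log2 7.91 ± 0.29 SE, limma adjusted p = 2.64e-11) and 240-fold in isotype control mice (153 to 377, log2 7.91 ± 0.31, adjusted p = 5.21e-11) against naïve mice, which placed Lcn2 7th and 9th of 34958 probe sets by log2 fold change. The naïve signals of 30.8 to 118 lay below the array medians, so the size of the fold is uncertain, and with 32 added to every signal the log2 fold change was 7.37 in both. Between the antibody groups the difference was -0.000213 (95% interval -0.65 to 0.65, unadjusted p = 0.999), an interval that leaves room for a change of over 1.5-fold either way.

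Serpina3n encodes a secreted inhibitor of serine proteases such as granzyme B and neutrophil elastase. Its log2 signals (1419100_at) were 13.03, 13.21 and 13.54 at lowest, median and highest in anti-RGMa mice, 13.65, 13.13, 12.67, 12.99 and 13.47 in isotype control replicates 1 to 5, and 8.61, 9.21 and 9.49 in naïve mice. The isotype control mice spread more widely than the anti-RGMa mice and enclosed their range, and both stood apart from naïve mice. The rise was 17.1-fold in anti-RGMa (log2 4.10 ± 0.18 SE, limma adjusted p = 2.44e-10) and 16.6-fold in isotype control mice (4.06 ± 0.19, adjusted p = 4.59e-10), and the antibody groups differed by 0.04 (95% interval -0.37 to 0.45, adjusted p = 0.947). Mice carry several near-identical Serpina3 paralogs whose transcripts may share probes with this set. Of the 10 paralogs and protease targets listed for comparison, 4 had a single-gene probe set. All 4 rose in both EAE groups, with medians of 2.86 in anti-RGMa and 3.10 in isotype control mice. They included the protease genes Gzmb, Elane and Ctsg, so they say little about the paralogs. Ctsg was the dimmest, with a mean log2 signal of 5.25 in anti-RGMa, 5.57 in isotype control and 2.21 in naïve mice. Gzmb, which encodes granzyme B of cytotoxic lymphocytes, rose by 4.12 in anti-RGMa and 4.72 in isotype control mice, and Elane, which encodes neutrophil elastase, rose by 2.55 in anti-RGMa and 1.83 in isotype control mice.

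**Figure D1:**
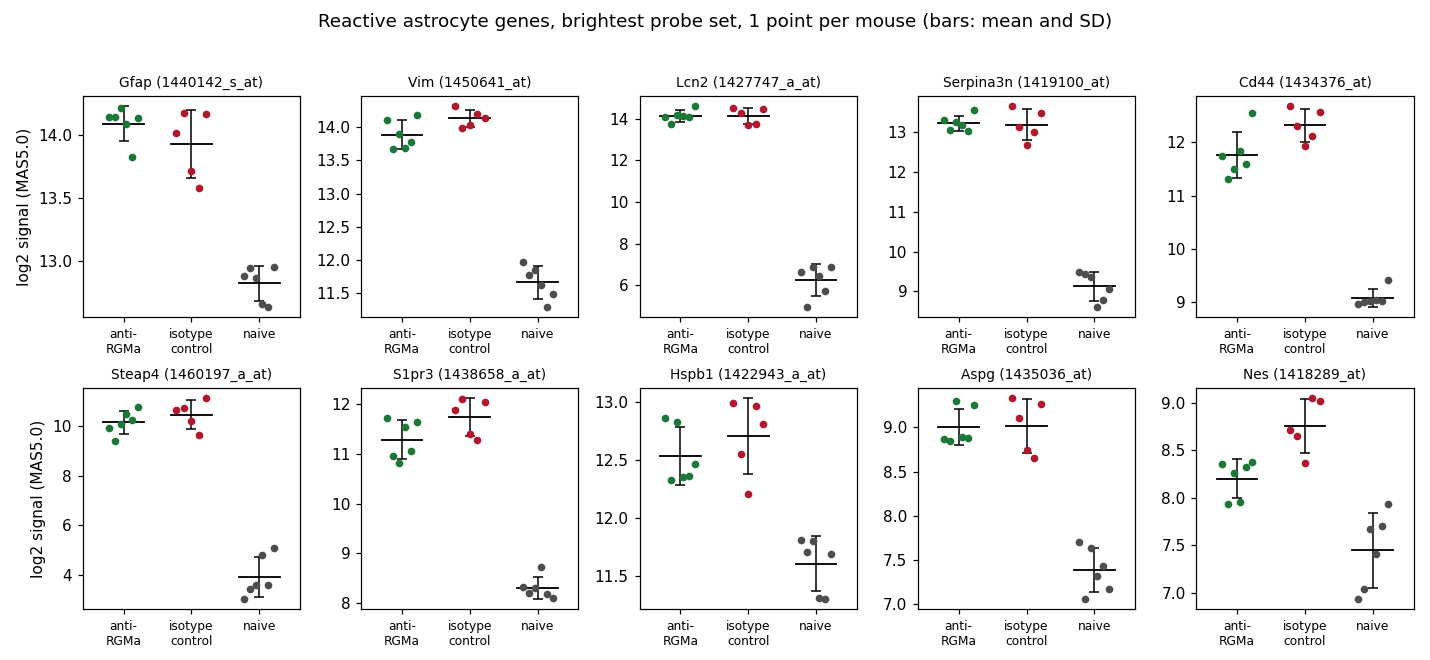
Log2 signal of the brightest probe set of each of the 10 genes in every mouse, with 1 point per array and the mean ± SD of anti-RGMa (n = 6), isotype control (n = 5) and naïve mice (n = 6). In each panel all EAE points lie above all naïve points, from the wide gap of Lcn2 (lowest EAE value 13.73, highest naïve value 6.89) to the narrow one of Nes (7.94 and 7.93), and the anti-RGMa and isotype control points overlap.

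Among the membrane proteins, Steap4, a ferric and cupric reductase of the STEAP family that is induced by inflammatory cytokines, had the largest fold change of the 10 genes after Lcn2, and its window above held the STAT match and both NF-kB matches. Steap4 1460197_a_at had log2 signals of 9.41, 10.17 and 10.75 at lowest, median and highest in anti-RGMa mice, 10.65, 10.72, 10.20, 9.62 and 11.12 in isotype control replicates 1 to 5, and 3.04, 3.59 and 5.08 in naïve mice. The EAE groups overlapped over most of their range and lay far above the naïve mice. The fold was 75.1 in anti-RGMa (95% interval 44.5 to 126, limma adjusted p = 3.83e-09) and 92.9 in isotype control mice (53.7 to 161, adjusted p = 3.4e-09). These folds rest on naïve signals close to the bottom of the scale. With 32 added to every signal, the log2 fold changes of Steap4 1460197_a_at were 4.59 in anti-RGMa and 4.89 in isotype control mice, against 6.23 and 6.54 without. The mean of both Steap4 probe sets rose by 5.18 in anti-RGMa and 5.40 in isotype control mice. The offset values of 1425829_a_at were 2.66 in anti-RGMa and 2.77 in isotype control mice, against 4.14 and 4.26 without. Between the antibody groups the difference was -0.31 (95% interval -1.10 to 0.48, adjusted p = 0.734) and -0.12 (-1.12 to 0.88, adjusted p = 0.934) for the 2 probe sets.

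Cd44 encodes the receptor for hyaluronan, found on reactive astrocytes and on most activated leukocytes. Cd44 1434376_at had log2 signals of 11.30, 11.67 and 12.55 at lowest, median and highest in anti-RGMa mice, 12.68, 12.31, 11.93, 12.12 and 12.56 in isotype control replicates 1 to 5, and 8.96, 9.02 and 9.40 in naïve mice. Of the anti-RGMa mice, replicate 6 alone lay within the isotype control range and the other 5 lay below it. Cd44 rose 6.43-fold in anti-RGMa (log2 2.69 ± 0.18 SE, limma adjusted p = 2.68e-08) and 9.52-fold in isotype control mice (3.25 ± 0.19, adjusted p = 5.23e-09) against naïve mice. The antibody groups differed by -0.57 for 1434376_at (95% interval -0.97 to -0.16, unadjusted p = 0.00964, adjusted p = 0.28), -0.43 for 1423760_at (-0.78 to -0.07, adjusted p = 0.317) and -0.14 for 1452483_a_at (-0.53 to 0.24, adjusted p = 0.754). The remaining probe set, 1443265_at, had signals of 0.999 to 32.5 on every array and passed no test. It gave 1.03 in anti-RGMa and -0.05 in isotype control mice against naïve mice, so it disagreed with the other 3, which rose by 2.03 to 2.69 in anti-RGMa and 2.17 to 3.25 in isotype control mice. The mean of the 4 Cd44 probe sets, which includes the dim one, rose by 2.07 in anti-RGMa and 2.08 in isotype control mice and differed by -0.013 between the antibody groups.

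S1pr3 encodes a G protein-coupled receptor for the lipid sphingosine 1-phosphate. S1pr3 1438658_a_at had log2 signals of 10.81, 11.30 and 11.72 at lowest, median and highest in anti-RGMa mice, 11.88, 12.11, 11.39, 11.28 and 12.05 in isotype control replicates 1 to 5, and 8.09, 8.26 and 8.73 in naïve mice. All 6 anti-RGMa mice lay below the isotype control mean, and the groups overlapped at isotype control replicates 3 and 4. The rise was 7.9-fold in anti-RGMa (log2 2.98 ± 0.19 SE, limma adjusted p = 1.38e-08) and 10.8-fold in isotype control mice (3.44 ± 0.20, adjusted p = 4.39e-09) against naïve mice. Between the antibody groups, 1438658_a_at differed by -0.45 (95% interval -0.88 to -0.03, adjusted p = 0.351), 1437173_at by -0.47 (-0.87 to -0.06, adjusted p = 0.334) and the dimmer 1460661_at by -0.07 (-0.94 to 0.79, adjusted p = 0.953). With 32 added to every signal, the rises of S1pr3 1460661_at were 1.62 in anti-RGMa and 1.68 in isotype control mice, against 2.58 and 2.65 without.

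Hspb1 encodes the small heat shock protein HSP27, which binds unfolded proteins and filaments. Hspb1 1422943_a_at had log2 signals of 12.32, 12.41 and 12.86 at lowest, median and highest in anti-RGMa mice, 12.99, 12.55, 12.20, 12.96 and 12.80 in isotype control replicates 1 to 5, and 11.30, 11.70 and 11.81 in naïve mice. The EAE groups overlapped, above all naïve mice. The rise was 1.9-fold in anti-RGMa (limma adjusted p = 0.000286) and 2.14-fold in isotype control mice (adjusted p = 5.26e-05), and the antibody groups differed by -0.17 (95% interval -0.51 to 0.17, adjusted p = 0.657). The other probe set, 1425964_x_at, rose by 1.07 in anti-RGMa and 1.24 in isotype control mice and differed by -0.17 between the antibody groups.

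Aspg encodes an asparaginase that serves in mice as a marker of reactive astrocytes. Aspg 1435036_at had log2 signals of 8.85, 8.89 and 9.30 at lowest, median and highest in anti-RGMa mice, 9.33, 9.10, 8.74, 8.66 and 9.27 in isotype control replicates 1 to 5, and 7.05, 7.37 and 7.70 in naïve mice. The range of the isotype control mice held that of the anti-RGMa mice. The rise was 3.08-fold in anti-RGMa (limma adjusted p = 6.57e-07) and 3.11-fold in isotype control mice (adjusted p = 7.3e-07), and the antibody groups differed by -0.02 (95% interval -0.34 to 0.31, adjusted p = 0.974).

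Markers of infiltrating cells rose in the same arrays, and their part in the members' rise was not tested. Of 12 macrophage and monocyte markers, 12 rose in each EAE group, with a median log2 fold change of 3.67 in anti-RGMa and 4.03 in isotype control mice. Their summed signal was 54446 to 91479 in anti-RGMa, 53379 to 90165 in isotype control and 5811 to 7491 in naïve mice, and none was listed at 0. Of these, Ccr2, the chemokine receptor of monocytes, rose by 5.59 on the log2 scale in anti-RGMa and 6.26 in isotype control mice, and Cybb, a subunit of the phagocyte oxidase, by 6.52 in anti-RGMa and 6.73 in isotype control mice. Of 9 measured neutrophil markers, which bear on Lcn2, 8 rose in each EAE group, with medians of 3.53 in anti-RGMa and 3.75 in isotype control mice. S100a8, a calcium-binding protein of neutrophils and monocytes, rose by 5.76 in anti-RGMa and 5.69 in isotype control mice. Of 6 measured T cell markers, 5 rose in each EAE group.

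Genes that resting astrocytes express did not rise as a group. Of 14 homeostatic astrocyte markers, 4 rose and 2 fell in anti-RGMa mice and 4 rose and 7 fell in isotype control mice against naïve mice, with medians of -0.08 in anti-RGMa and -0.26 in isotype control mice. Their mean log2 signal was 12.33 ± 0.15 in anti-RGMa, 12.13 ± 0.14 in isotype control and 12.26 ± 0.03 in naïve mice (SD over mice, n = 6, 5 and 6), and none was listed at 0. Slc1a3, which encodes the glutamate transporter GLAST, rose by 1.31 in anti-RGMa and 1.62 in isotype control mice, while Gjb6, which encodes the gap junction protein connexin 30, fell by 1.01 in anti-RGMa and 1.35 in isotype control mice. Acsbg1, an acyl-CoA synthetase of astrocytes, had -0.20 in anti-RGMa mice, which did not pass, and fell by 0.60 in isotype control mice. Of 8 neuron markers, 6 fell in anti-RGMa and 8 in isotype control mice, with medians of -0.77 in anti-RGMa and -1.13 in isotype control mice. Of 5 measured oligodendrocyte markers, 0 fell in anti-RGMa and 2 in isotype control mice. Of 6 ependymal markers, 0 passed in either comparison.

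Genes grouped with the members in earlier work on reactive astrocytes were also higher than in naïve cord. The 4 other pan-reactive genes all rose in both EAE groups, with medians of 3.98 in anti-RGMa and 4.63 in isotype control mice, led by Cxcl10, a chemokine for T cells, with 6.71 in anti-RGMa and 7.05 in isotype control mice, and Timp1, an inhibitor of metalloproteinases, with 5.39 in anti-RGMa and 6.16 in isotype control mice. Of 9 measured genes of the type induced by lipopolysaccharide, 6 rose in each group and 1 fell in isotype control mice. Gbp2, an interferon-induced GTPase, rose by 5.83 in anti-RGMa and 5.93 in isotype control mice, and Iigp1, another one, by 5.77 in anti-RGMa and 5.84 in isotype control mice. Of 13 genes of the type induced by ischemia, 12 rose in anti-RGMa and 13 in isotype control mice, with medians of 1.85 in anti-RGMa and 2.40 in isotype control mice. Tgm1, a transglutaminase, rose by 6.43 in anti-RGMa and 7.06 in isotype control mice, and Ptx3, a secreted pattern recognition protein, by 4.63 in anti-RGMa and 5.53 in isotype control mice. The exception was Sphk1, which makes sphingosine 1-phosphate, with -0.11 in anti-RGMa mice, which did not pass, and a rise of 0.60 in isotype control mice.

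Upstream signals of reactivity rose as well. Of 13 measured genes of gp130 and STAT3 signalling, 10 rose in each EAE group, and 1 (Lifr, a receptor chain for leukemia inhibitory factor, named after its values were seen) fell in isotype control mice, with medians of 1.06 in anti-RGMa and 1.70 in isotype control mice. Socs3, the feedback inhibitor that STAT3 induces, rose by 4.40 in anti-RGMa and 5.22 in isotype control mice, and Osmr, the oncostatin M receptor, by 2.56 in anti-RGMa and 3.10 in isotype control mice. Of 10 measured microglial inducers and NF-kB genes, 10 rose in each group, with medians of 2.96 in anti-RGMa and 3.18 in isotype control mice. Il1b, which encodes interleukin-1β, rose by 3.60 in anti-RGMa and 4.24 in isotype control mice, and its receptor gene Il1r1 by 2.80 in anti-RGMa and 3.49 in isotype control mice. Rela, an NF-kB subunit, rose by 0.80 in anti-RGMa and 1.04 in isotype control mice.

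The partners of single members were more mixed. Of 6 intermediate filament partners, 0 passed in anti-RGMa mice, while 4 rose and 1 fell in isotype control mice. In isotype control mice the nuclear lamin gene Lmna rose by 0.85 and the neuronal filament gene Ina fell by 1.08. Of 7 measured genes around hyaluronan and CD44, 2 rose in anti-RGMa and 4 in isotype control mice. These included Msn and Ezr, which encode moesin and ezrin and link CD44 to actin, with 1.89 and 1.17 in anti-RGMa and 2.25 and 1.71 in isotype control mice. Of 8 sphingosine 1-phosphate genes other than S1pr3, 3 rose in anti-RGMa mice, and 5 rose and 2 fell in isotype control mice. Sgpl1, the lyase that degrades the lipid, rose by 2.02 in anti-RGMa and 2.35 in isotype control mice. Of 3 lipocalin 2 partners, 1 fell in both groups, the lipocalin 2 receptor gene Slc22a17, by 0.59 in anti-RGMa and 1.04 in isotype control mice. Of 9 measured small heat shock proteins and heat shock genes, 1 rose and 1 fell in anti-RGMa and 4 rose and 1 fell in isotype control mice. The gene that fell in both was Hspa1a, an inducible chaperone, by 0.71 in anti-RGMa and 0.73 in isotype control mice. Of 6 genes of the STEAP and asparaginase families, 1 rose and 1 fell in anti-RGMa and 1 rose and 3 fell in isotype control mice, and Steap2 fell by 0.59 in anti-RGMa and 0.93 in isotype control mice. Without isotype control replicates 3, 4 and 5, the counts in isotype control against naïve mice were 1 risen and 1 fallen filament partner, 2 risen hyaluronan genes, 4 risen and 0 fallen sphingosine 1-phosphate genes, 2 risen and 0 fallen heat shock genes, and 0 risen and 1 fallen gene of the STEAP and asparaginase families. Of the other lists in that comparison, 3 Serpina3 paralogs and protease targets rose and 0 lipopolysaccharide-type genes, 6 homeostatic astrocyte markers and 0 oligodendrocyte markers fell. In anti-RGMa against naïve mice, without those arrays, 1 filament partner and 4 heat shock genes rose. Of the STEAP and asparaginase families, 0 then rose and 2 fell.

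**Figure D2:**
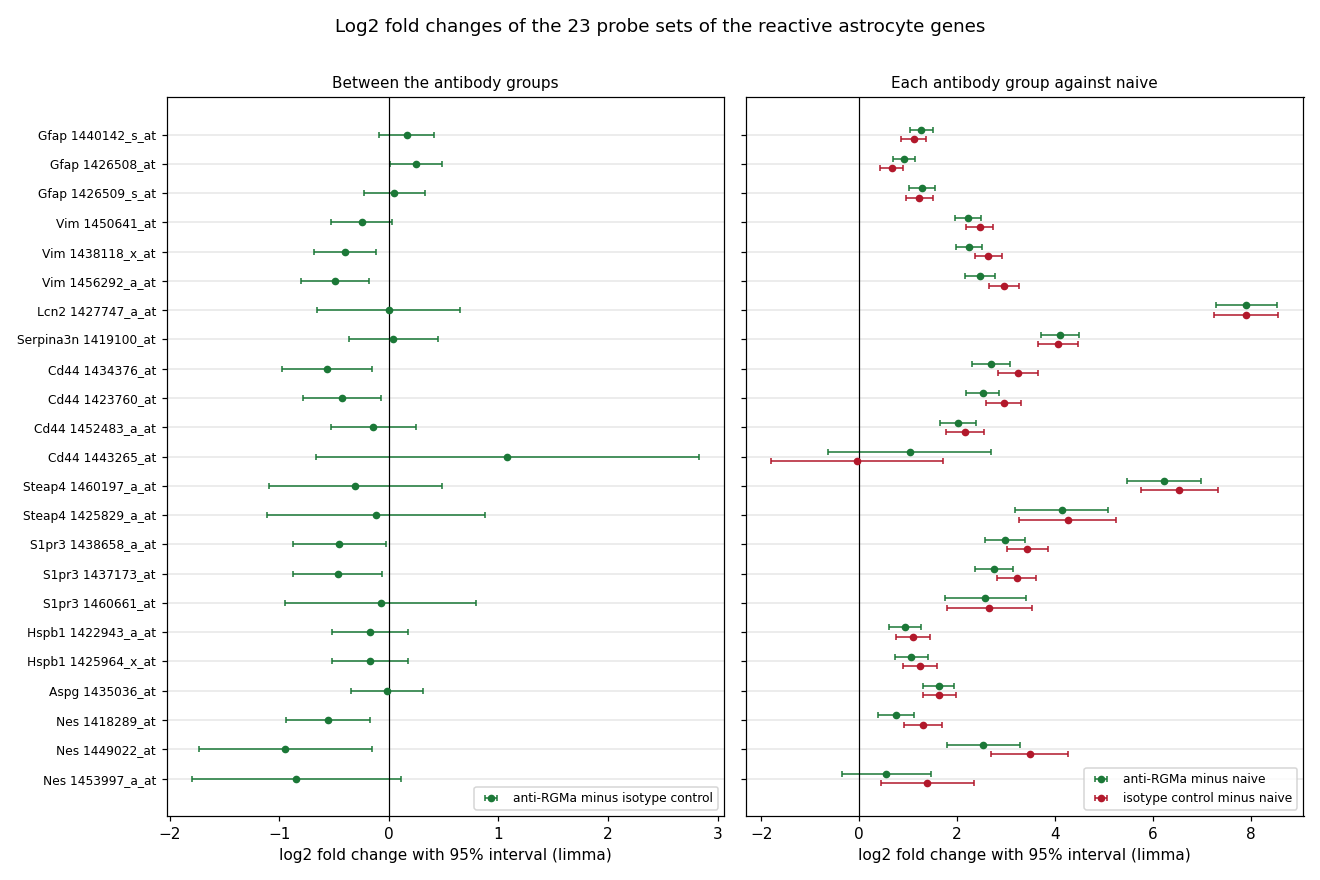
Log2 fold change with its 95% interval for each of the 23 member probe sets, with anti-RGMa minus isotype control at left and anti-RGMa minus naïve and isotype control minus naïve at right. At right all probe sets but Cd44 1443265_at and, for anti-RGMa, Nes 1453997_a_at pass the test above 0, and at left 18 of 23 estimates lie below 0, none past an adjusted p under 0.05.

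Between the antibody groups, 0 of the 23 member probe sets passed at an adjusted p under 0.05 (limma), as did 0 of all 34958 (0%). At an unadjusted p under 0.05, 9 of 23 members passed, of which 8 were lower and 1 higher in anti-RGMa mice, against 4705 of all probe sets. At the threshold used in the study, which asks for over 1.5-fold and an unadjusted p under 0.05, 1 member was lower, Nes 1449022_at (1.93-fold lower), and 0 were higher, where 2.55% of all probe sets were lower and 1.42% higher. In all, 18 of 23 estimates lay below 0, against 48.7% of all probe sets, with a median of -0.17 over the member probe sets and 0.01 over all. In 0 of the 23 did all anti-RGMa arrays lie below all isotype control arrays, which held for 0.498% of all probe sets. By gene, 8 of the 10 lay below 0 with the deposited scaling and Gfap and Serpina3n above, with Aspg at 0.0059 after quantile normalization and Aspg at 0.017 and Lcn2 at 0.033 after median centring. With all arrays, Cd44, Nes, S1pr3 and Steap4 had the lowest values, while Lcn2, Serpina3n and Aspg lay within 0.05 of 0. Without the isotype control arrays that carried skeletal muscle transcripts, Lcn2 was -0.25, Serpina3n -0.17 and Aspg -0.21.

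The count of 0 changed when 1 mouse was left out. Without anti-RGMa replicate 6, 4 member probe sets were lower in anti-RGMa than in isotype control mice at an adjusted p under 0.05 (limma), of 1561 called in all, 983 higher and 578 lower. These were Vim 1438118_x_at (-0.49, adjusted p = 0.0335), Vim 1456292_a_at (-0.62, adjusted p = 0.0266), Cd44 1434376_at (-0.72, adjusted p = 0.0306) and Cd44 1423760_at (-0.57, adjusted p = 0.0306). Over all alternatives their adjusted p ranged up to 0.536 for Vim 1438118_x_at, 0.528 for Vim 1456292_a_at, 0.987 for Cd44 1434376_at and 0.568 for Cd44 1423760_at. In each of these 4 the other 5 anti-RGMa arrays lay below all 5 isotype control arrays. That adds little, since the 4 were picked by their call in this setting and the share over all probe sets was not counted. With that mouse left out, 4 members passed the study threshold, of 2319 probe sets in all, against 1 of 1388 with all arrays. There were 3 of 1761 without isotype control replicate 3, 2 of 1190 without anti-RGMa replicate 1 and 0 of 1522 without anti-RGMa replicate 4. Leaving out any other single array gave 0 member calls at the adjusted threshold, of 0 to 2 in all. Leaving out anti-RGMa replicate 6 and isotype control replicate 1 together also gave 0 member calls, of 18 in all. Leaving out isotype control replicates 3, 4 and 5, which carried skeletal muscle transcripts, gave 0 member calls of 21 in all. In that setting 4 members passed the study threshold, of 1908 in all. Both joint settings were chosen after the data had been seen. Anti-RGMa replicate 6 had the highest value of its group for 6 of the 10 genes, and anti-RGMa replicate 2 the lowest for 7. Among isotype control mice, replicate 1 was highest for 6, replicate 3 lowest for 5 and replicate 4 lowest for 4.

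Other lists that lay lower in anti-RGMa than in isotype control mice stood beside the members Vim, Nes, Cd44 and S1pr3, and their part in those differences was not tested. At the study threshold all 8 fibroblast markers were lower, with a median of -1.45 against 0.01 over all probe sets. Their mean log2 signal ranged from 8.92 to 10.72 in anti-RGMa, 10.39 to 13.44 in isotype control and 8.55 to 9.59 in naïve mice, and none was listed at 0. Col1a1, a collagen chain, gave -1.87 (95% interval -2.89 to -0.84), and Postn, which encodes the matrix protein periostin, gave -2.43 (-3.99 to -0.86). Without isotype control replicates 3, 4 and 5, 3 of the 8 passed with a median of -0.80, and Col1a1 gave -1.49 and Postn -0.79. Of 11 endothelial markers 3 were lower, with a median of -0.31, of 5 smooth muscle markers 3, with a median of -1.06, of 8 skeletal muscle markers 2, with a median of -2.09 that turned to 1.21 with 0 lower without isotype control replicates 3, 4 and 5, of 12 macrophage and monocyte markers 2, with a median of -0.23 and with Mrc1, a mannose receptor, at -1.05, and of 4 measured Schwann cell markers 1. Without those 3 arrays the endothelial count was 2 and the Schwann cell count 0, the macrophage median was -0.47 and the neutrophil median turned to -0.26. Of 9 neutrophil and 14 homeostatic astrocyte markers 0 passed, with medians of 0.05 and 0.22, and 1 of 6 T cell markers was lower and 1 of 8 neuron markers higher.

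The related gene lists behaved in the same test as follows, with 0 adjusted calls in each. Of 13 ischemia-type genes 6 were lower in anti-RGMa mice at the study threshold, with a median of -0.61, including Ptx3 (-0.89, 95% interval -1.46 to -0.32) and Sphk1 (-0.71, -1.06 to -0.36). Of 9 lipopolysaccharide-type and 4 other pan-reactive genes, 0 passed that threshold, with medians of -0.10 and -0.48. Of 13 genes of gp130 and STAT3 signalling 3 were lower, with a median of -0.30. They were Socs3 (-0.82, -1.46 to -0.18) and the cytokine genes Il6 and Clcf1, which were named after their values were seen. Of the partner lists, 1 filament gene (Des, the desmin of muscle), 1 hyaluronan gene (Has2, a hyaluronan synthase, -0.88, -1.30 to -0.45) and 1 sphingosine 1-phosphate gene (Sphk1) were lower. Of the microglial inducers, small heat shock proteins, lipocalin 2 partners, Serpina3 paralogs and STEAP and asparaginase families, 0 passed. Without isotype control replicates 3, 4 and 5, Des gave -0.44 against -1.59 with them and Has2 -0.57, Des and Il6 did not pass, and the ischemia-type count stayed at 6. In that setting 1 small heat shock gene was higher at the study threshold, and the lipopolysaccharide-type median was -0.04. Without anti-RGMa replicate 6, adjusted calls appeared in these lists, with 3 of the ischemia-type genes, 2 of gp130 and STAT3 signalling, 2 around hyaluronan, 1 other pan-reactive gene and Sphk1 lower, and 1 filament gene and 1 lipocalin 2 partner higher; Clcf1, Sphk1 and Osmr each counted in a pair of lists. Of the cell type markers, 5 neuron and 3 homeostatic astrocyte markers were then higher, and 2 endothelial, 2 smooth muscle, 1 fibroblast, 1 macrophage and 1 T cell marker lower.

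**Figure D3:**
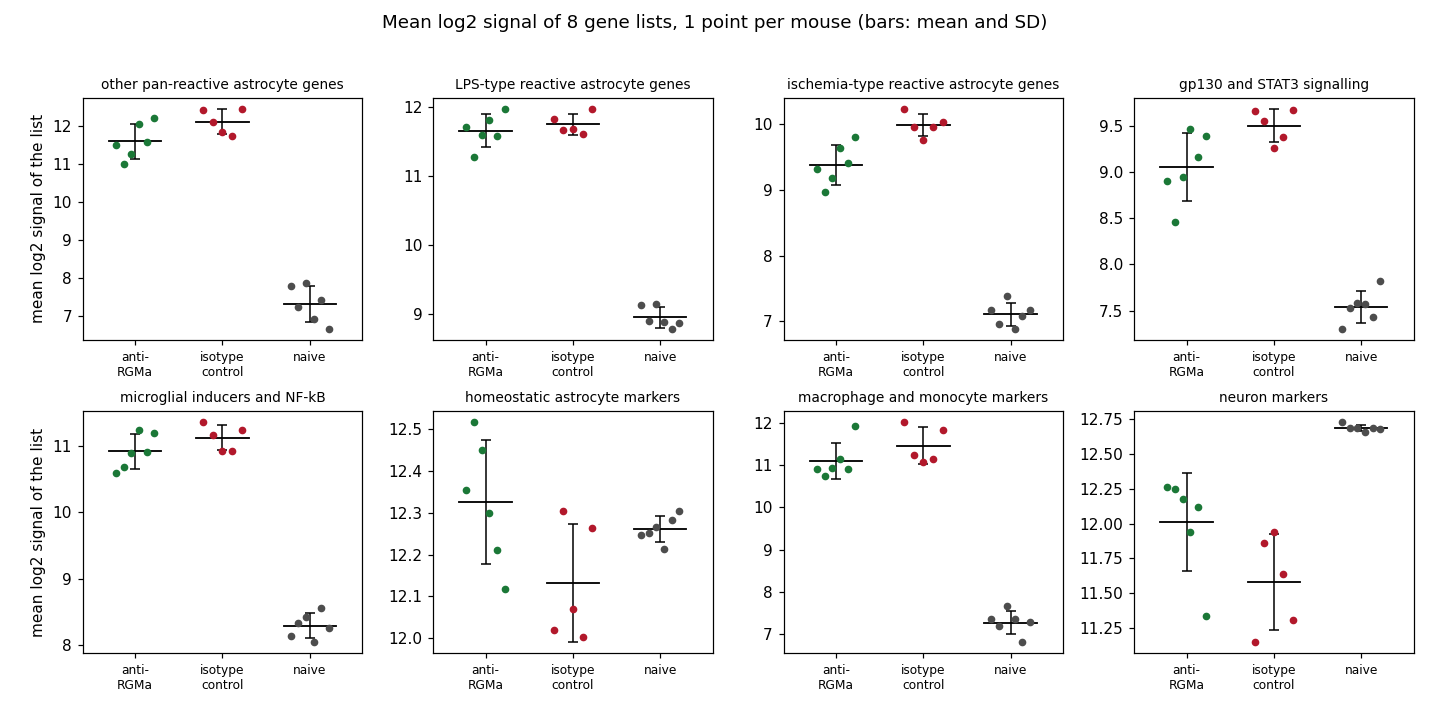
Mean log2 signal of 8 gene lists in every array, grouped as anti-RGMa, isotype control and naïve mice. The macrophage and monocyte list lies at 10.73 to 11.91 in anti-RGMa and 11.07 to 12.01 in isotype control mice against 6.82 to 7.66 in naïve mice. The homeostatic astrocyte list stays within 12.00 to 12.52 on every array.

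How the members varied among EAE mice was set beside the marker means. The mean log2 signal of the 12 macrophage and monocyte markers was 11.91 in anti-RGMa replicate 6, 12.01 in isotype control replicate 1 and 11.82 in isotype control replicate 5, against 10.73 to 11.25 in the other 8 EAE mice. The same 3 mice had the 3 highest values of Cd44, Lcn2 and Serpina3n. Over all 11 EAE mice, with each value centred on its group mean, 3 of 20 relations passed an adjusted p under 0.05 (exact permutation within groups, two-sided, 10 genes by 2 marker lists). Cd44 had r = 0.95 (permutation p = 5.79e-05, adjusted 0.00116, Spearman rho = 0.89, adjusted 0.0181), with r = 0.97 within anti-RGMa and 0.95 within isotype control mice. Lcn2 had r = 0.90 (permutation p = 0.000729, adjusted 0.00525, rho = 0.90, adjusted 0.0209), with 0.92 within anti-RGMa and 0.89 within isotype control mice. Serpina3n had r = 0.86 (permutation p = 0.000787, adjusted 0.00525, rho = 0.85, adjusted 0.0248), with 0.86 within anti-RGMa and 0.95 within isotype control mice.

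Without the 2 mice farthest from the median of the marker mean, r was 0.86 for Cd44, 0.85 for Lcn2 and 0.82 for Serpina3n. The relations rested in part on the 3 mice that stood apart. Among the other 8 EAE mice, a set chosen after the data had been seen, 0 of 20 relations passed, with r = 0.87 for Cd44 (exact permutation p = 0.0153, adjusted 0.153), 0.77 for Lcn2 (p = 0.0264, adjusted 0.174), 0.78 for Steap4 (p = 0.0347, adjusted 0.174) and 0.50 for Serpina3n. The other 7 genes had r of 0.25 (Hspb1) to 0.74 (Steap4 and Aspg) over the 11 mice, and none passed after adjustment. With the homeostatic astrocyte markers 0 of 10 genes passed, and Gfap had r = 0.63 (exact permutation adjusted p = 0.163, rho = 0.72). All values of a relation come from the same arrays and share their scaling, and after median centring 7 of the 20 relations passed.

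**Figure D4:**
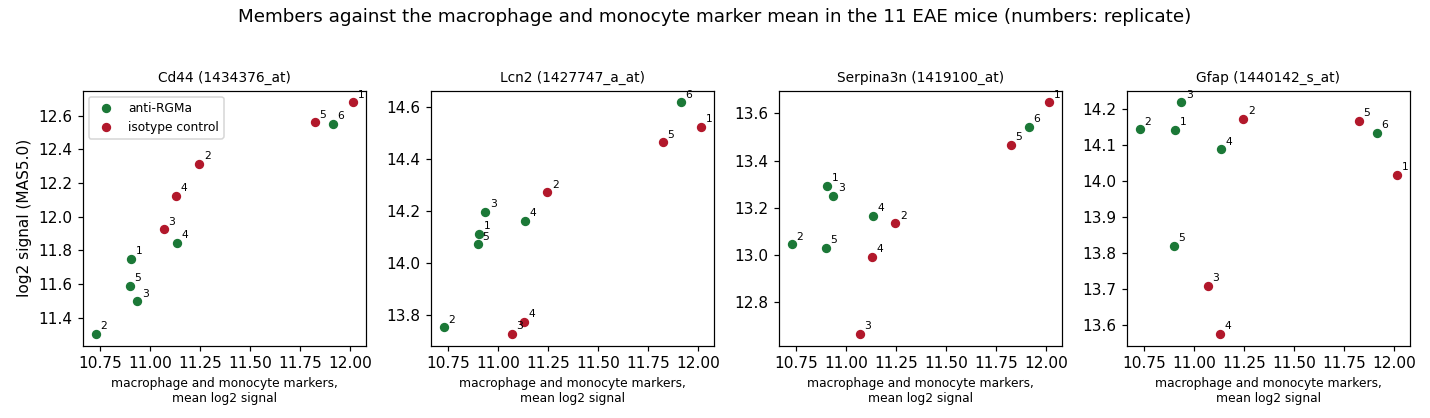
Log2 signal of Cd44, Lcn2, Serpina3n and Gfap against the mean log2 signal of the 12 macrophage and monocyte markers in the 11 EAE mice, 1 point per mouse with its replicate number, anti-RGMa and isotype control in separate colours. Anti-RGMa replicate 6 and isotype control replicates 1 and 5 lie apart at the right, between 11.82 and 12.01, with the highest Cd44, Lcn2 and Serpina3n signals, while their Gfap signals fall within the range of the other 8 mice.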

How the data were processed

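Total RNA of thoracic spinal cord from 17 mice (6 anti-RGMa, 5 isotype control and 6 naïve) was hybridised to Affymetrix mouse arrays, 1 array per mouse with no pooling. The deposited values are linear signal intensity values that the authors computed with Microarray Suite version 5.0 and global scaling, and the submitters' processing notes also name affy (version not given in the sources used here). Across the files, the mean intensity after trimming 2% at each end was 500 in every array. No detection calls were used, so dim signals carry background.

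Of 45101 probe sets, the 34958 with a single annotated gene were used, and 932 with several genes and 9211 without one were left out. By gene ID, 34754 matched the RefSeq gene table of assembly GRCm38.p6. Signals were taken to log2 without offset or filter and fitted by lmFit and eBayes of limma 3.58.1 (R 4.3.3) in a single model of the 3 groups with no covariate and 14 residual degrees of freedom before moderation, with Benjamini-Hochberg adjustment over all 34958. The study's methods name limma, and its threshold asks for over 1.5-fold and an unadjusted p under 0.05.

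Members, the 24 other gene lists, the tests and the alternatives were chosen with earlier results of these data known. The text names all members and, of each other list, up to 2 called genes with the largest change between isotype control and naïve mice and a mean log2 signal of at least 8, and the gene whose p between anti-RGMa and isotype control was smallest. A list gene is represented by its brightest probe set. The fit was tested on simulated data. Alternatives covered scaling, offset, a filter on dim probe sets, the choice of probe set, array weights, the variance model, each array left out and a replicate block. Nothing in the labels says that mice with the same number belong together. Plots used Python 3.11.15 and matplotlib 3.10.9.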

Additional observations from a re-analysis of the deposited data

Results flagged for a closer look

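By Dixon's test at the 95% level, 3 of the 69 groups of member values had a sample far from the others, where chance flags about 3.45. In anti-RGMa mice, the log2 signal of Gfap 1440142_s_at was 13.82 in replicate 5 against 14.09 to 14.22 in the other 5. In naïve mice, Cd44 1434376_at was 9.40 in replicate 6 against 8.96 to 9.04, and S1pr3 1438658_a_at was 8.73 in replicate 4 against 8.09 to 8.31.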

How the results depend on the processing

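Depth has no meaning for these arrays, and signal over background limits the dim probe sets, in which the size of a fold change depends on the offset. The arrays number 6 anti-RGMa, 5 isotype control and 6 naïve, which limits the precision. The EAE groups differ from naïve mice in every procedure at once. The cause of the changes below was not tested, except that settings with 1 value per gene test fewer features.

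The members' rise over naïve mice kept its direction in every setting for the 22 probe sets called in isotype control mice. Of 639 member values for anti-RGMa against naïve mice, 637 stayed on their side of the threshold and 2 came to pass it. For isotype control against naïve mice 631 of 639 did, 1 no longer passed and 7 changed sign, all of Cd44 1443265_at, whose log2 fold change was 0.13 with the replicate block, 0.26 without anti-RGMa replicate 6 and isotype control replicate 1, and -0.46 to 0.39 when each array was left out. With 1 probe set per gene or the mean of a gene's probe sets, 10 of 10 members rose in both comparisons. The calls over all genes in isotype control against naïve mice were then 9426 and 8357, and in anti-RGMa against naïve mice 7621 and 6714.

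Between the antibody groups, 605 of 639 member values stayed on their side of the threshold, 4 came to pass it and 30 changed sign. Calls over all features at an adjusted p under 0.05 (limma) were 1 with 1 probe set per gene, 1 with the mean of probe sets, 1 with the filter on dim probe sets, 1 with a robust intensity trend, 21 without isotype control replicates 3 to 5, 18 without anti-RGMa replicate 6 and isotype control replicate 1, and 0 to 1561 with each array left out, with 0 to 4 members among these. At the study threshold 817 passed with 32 added, 738 with the filter, 716 with 1 probe set per gene, 699 with the mean of probe sets, and 1039 to 2319 with each array left out, against 1388 with the deposited scaling. The members among them numbered 0 with 1 probe set per gene and 2 with array weights (of 1654 in all). They numbered 4 without isotype control replicates 3 to 5 (of 1908) and 3 without anti-RGMa replicate 6 and isotype control replicate 1 (of 1824). With each array left out they numbered 0 to 4, and the highest in all 3 counts came without anti-RGMa replicate 6. Equal replicate numbers did not pair mice, with correlations of -0.045 to 0.041 between same-numbered arrays of the groups. With the replicate block, 4 probe sets were called in all and 0 members, 3 members passed the study threshold (of 1888 in all), and no other member call changed.

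Differences near 0 changed sign. Aspg was 0.0059 after quantile normalization, 0.017 after median centring, 0.013 without anti-RGMa replicate 6 and isotype control replicate 1, and -0.11 to 0.062 with each array left out. Lcn2 was 0.033 after median centring and -0.11 to 0.093 with each array left out. Without isotype control replicates 3 to 5, Gfap 1440142_s_at was -0.0037, Gfap 1426509_s_at -0.096, Serpina3n -0.17 and S1pr3 1460661_at 0.14. Others kept their sign there but changed in size. Lcn2 was -0.25, Aspg -0.21, S1pr3 1438658_a_at -0.71 and Steap4 1460197_a_at -0.53. Cd44 1452483_a_at was -0.036 and Cd44 1443265_at 2.32. In isotype control against naïve mice, Cd44 1443265_at was then -1.28. With each array left out, Gfap 1426509_s_at was -0.047 to 0.15, Serpina3n -0.088 to 0.16, S1pr3 1460661_at -0.18 to 0.057 and Steap4 1425829_a_at -0.26 to 0.018.

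Of the 20 correlations, 5 passed by Spearman rho, 7 after median centring, 0 without the 3 mice that stood apart, and 1 to 4 with each array left out, the lowest without anti-RGMa replicate 6. With the macrophage markers, Vim was -0.086 without those 3 mice and Nes -0.24 with the mean of its probe sets. With the homeostatic astrocyte markers signs were unstable. After median centring r was 0.033 for Vim, 0.22 for Lcn2, 0.275 for Serpina3n, 0.16 for Steap4, 0.26 for Hspb1 and 0.028 for Nes. Spearman rho was 0.018 for Serpina3n and 0.00 for Steap4. Without the 2 farthest mice r was 0.040 for Serpina3n, 0.12 for Steap4, 0.30 for Hspb1 and 0.043 for Nes. Without the 3 mice that stood apart r was 0.26 for Lcn2, 0.38 for Serpina3n and 0.037 for Steap4, and Aspg was -0.046 with the mean of probe sets. With each array left out r was -0.35 to 0.16 for Lcn2, -0.27 to 0.14 for Serpina3n, -0.39 to 0.21 for Steap4, -0.18 to 0.22 for S1pr3, -0.14 to 0.15 for Hspb1 and -0.056 to 0.39 for Aspg.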
